A study of Homo sapiens with 2 samples.

Results

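The genes described here are the human genes whose symbol begins with EIF, the family named for the eukaryotic translation initiation factors. They were chosen by name alone, as protein-coding genes on chromosomes 1 to 22 and X in GENCODE release 44 on the hg19 genome, and the rule uses no measured value. This gave 55 genes of 19756 coding genes. They fell into 4 EIF1, 15 EIF2, 14 EIF3, 16 EIF4 and 5 EIF5 genes and 1 EIF6 gene. ChIP-seq with an NRF-1 antibody was performed in the human glioblastoma cell line U251 after transfection of either a non-targeting siRNA (siControl) or one directed at AATF (siAATF). AATF is a transcriptional cofactor, and the study asked whether NRF-1 still occupied its promoters once AATF was depleted. The design text of the series names U138 cells, whereas both sample labels name U251, and the labels were followed. AATF levels are not part of the peak lists, so the depletion itself was not checked here.

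Translation begins when the small ribosomal subunit, carrying the initiator tRNA held by the EIF2 complex, is brought to the capped end of an mRNA and moves along it to the start codon. EIF3, the largest of the factors, holds the small subunit ready. The EIF4 factors recognise the cap and unwind the leader, and EIF5 and EIF5B release the factors and join the large subunit. NRF-1 is a transcription factor best known for nuclear genes of the respiratory chain. It binds as a dimer to a GC-rich palindrome, which is common in the CpG-rich promoters of genes that nearly all cells use.

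Each condition was represented by 1 peak list, of 18014 peaks in siControl and 18454 in siAATF. The experiment was described as a duplicate, yet both samples are labelled replicate 1 and no second list was analysed here. There was therefore no spread between replicates, and every difference between the lists compares 2 libraries, with no test. The read depth was unknown, and neither an input nor an IgG library was described. For each gene, the promoter was taken as the region within 1 kb of any protein-coding transcript start, and the peak there with the highest −log10 q, the peak caller's significance, was taken. Its strength was also given as a percentile rank by fold enrichment over the local background within its own list, where the weakest peak has rank 0 and the strongest rank 100. Intervals for shares are exact Clopper-Pearson 95% intervals and cover counting error only. Intervals for medians come from the ordered values of the genes. They reflect the spread among genes and not between libraries.

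The sequence that the antibody's target reads was looked for first. The NRF-1 core was taken as the 10-base palindrome GCGCATGCGC, which is its own reverse complement and so is searched on both strands at once. It occurred exactly in the promoter peak of 1 member, EIF2AK1, the kinase that slows initiation when haem is short. That share, 1.96% of the members with a siControl peak and 2.0% in siAATF, compares with 3.95% and 4.01% of all coding genes with a promoter peak. EIF2S2, which encodes the beta subunit of EIF2, carried 3 copies with 1 mismatch each in the 200 bases before its start. That stretch is printed, to show how closely such sites can lie, from the genome sequence of hg19, 5′ to 3′ on the strand of the gene, up to the base before the canonical start, with the cores in capitals.
EIF2S2 (chr20:32700050-32700249, minus strand): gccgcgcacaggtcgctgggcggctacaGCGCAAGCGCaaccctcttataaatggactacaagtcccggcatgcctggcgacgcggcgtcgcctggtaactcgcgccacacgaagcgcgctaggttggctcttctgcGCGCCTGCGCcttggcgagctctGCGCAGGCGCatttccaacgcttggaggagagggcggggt

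With up to 1 mismatch allowed, the core occurred in the promoter peak of 16 of 51 members in siControl (31.4%, 95% CI 19.1 to 45.9) and 16 of 50 in siAATF (32.0%, 19.5 to 46.7). The same was true of 24.3% and 24.4% of all coding genes with a promoter peak. The call was the same in both lists for all 50 members that had a peak in each. The 16 members held 27 sites, all 27 of them also inside the siAATF peak, and 6 members held more than 1. Agreement between the lists was not counted over all coding genes, so it is not read as a trait of the members. Sites of 9 members are printed as examples, with the 4 groups and EIF1 each represented. Each is the site of its member closest to the middle of the siControl peak, as 30 bases of hg19 on the strand of the gene with the core in capitals.
EIF1 (chr17:39844971-39845000, plus strand): cagacttcctGCGCAAGCGCcatcccatgt
EIF2S1 (chr14:67827008-67827037, plus strand): tattcgttcaGCGCTTGCGCatgcgaggag
EIF2B3 (chr1:45452274-45452303, minus strand): cggccatcgcGCGCCTGCGCcattgggctg
EIF2B5 (chr3:183853027-183853056, plus strand): cccggggaagACGCATGCGCactgctccct
EIF2D (chr1:206785972-206786001, minus strand): cgagccgctcGCGCAGGCGCagagccaggc
EIF3A (chr10:120840394-120840423, minus strand): tgacgccagcGCGCTTGCGCgcacggagac
EIF3K (chr19:39109615-39109644, plus strand): gccacgagagGCGCCTGCGCactgggatcc
EIF4H (chr7:73588569-73588598, plus strand): gtgcgcgcgcGCGCGTGCGCgtgcctgcgt
EIF5A (chr17:7210721-7210750, plus strand): aaaaccgggtGCGCCTGCGCgttgcagatt

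Counting from 1 at the 5′ end of the core on the gene's strand, with the base of the palindrome first, these sites read T6A in EIF1, A5T in EIF2S1, A5C in EIF2B3, G1A in EIF2B5, T6G in EIF2D, A5T in EIF3A, A5C in EIF3K, A5G in EIF4H and A5C in EIF5A. Positions 5 and 6 are the middle of the palindrome, where published NRF-1 motifs tolerate change. Of the 26 member sites with 1 mismatch, 19 (73.1%) differed there, beside 2031 of 2861 sites (71.0%) over the siControl promoter peaks of all coding genes. The members were thus near the share of coding genes at large. The printed sites of EIF1, EIF2S1, EIF2D, EIF3A, EIF3K and EIF5A lay outside annotated exons, whereas those of EIF2B3, EIF2B5 and EIF4H overlapped an exon of some transcript. In 15 of the 16 core-bearing members the site closest to the peak's middle lay before the canonical start, and in 13 it lay within 250 bp of it. The exception downstream was EIF4B, whose site was centred 560.5 bp after the start, in an intron.

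Nearly every EIF gene carried an NRF-1 promoter peak when all peaks of a list were used. In siControl 51 of 55 members had one (92.7%, 95% CI 82.4 to 98.0), and in siAATF 50 of 55 (90.9%, 80.0 to 97.0). Over all coding genes the shares were 61.2% and 60.8%. With peaks of −log10 q of at least 5 alone, 46 of 55 members (83.6%) had one in each list, beside 51.6% of all coding genes in siControl and 51.6% in siAATF. The peaks of the 50 members found in both lists overlapped each other, and the overlap covered at least 59.1% of the siControl peak, with a median of 96.8%. This overlap was not computed over all coding genes and is not read as a trait of the family. CpG content was compared in a fixed window. In the sequence from 250 bases before to 50 after the canonical start, the median observed-to-expected CpG ratio was 0.932 for the members and 0.775 for all coding genes, while the median GC content was 64.3% and 63.7%.

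All 4 members without a peak in either list belong to pairs of near-identical genes. EIF3C and EIF3CL, both on chromosome 16, encode the same large EIF3 subunit, and their coding sequences were 99.9% identical in hg19. Their promoters matched too, at 1999 of 2001 positions over 1 kb on either side of the start. The nearest siControl peak lay 111102 bp from the EIF3C start and 38620 bp from that of EIF3CL. Reads from such a pair cannot be assigned to one copy, how reads with several alignments were treated was not stated, and the part of this in the missing peaks was not tested. EIF5AL1, a copy of EIF5A with 98.9% identity over the coding sequence, and EIF2S3B, a copy of EIF2S3 with 98.2%, also had no peak. Here the promoters differed from those of the parent genes, with 51.1% and 56.4% of aligned positions identical. The nearest siControl peak was 66469 bp away for EIF5AL1 and 216446 bp for EIF2S3B. Both parent genes, EIF5A and EIF2S3, carried a peak at the promoter in siControl and in siAATF. Without these 4 genes, a setting chosen with the data in view, the share was 100% in siControl and 98.0% in siAATF. As all 4 lacked a peak, the rise was fixed by that choice.

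EIF4EBP3 was the single member whose promoter peak was present in siControl only. It encodes one of the small proteins that bind EIF4E and keep it from the scaffold EIF4G. Its siControl peak (chr5:139927137-139927512) was weak, with a −log10 q of 2.92, a rank of 22.4 and a width of 376 bp. In siAATF the nearest peak was 9625 bp away. A promoter peak in siControl alone was found for 1.62% of all coding genes. The reverse case, a peak in siAATF only, did not occur among the members.

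**Figure D1:**
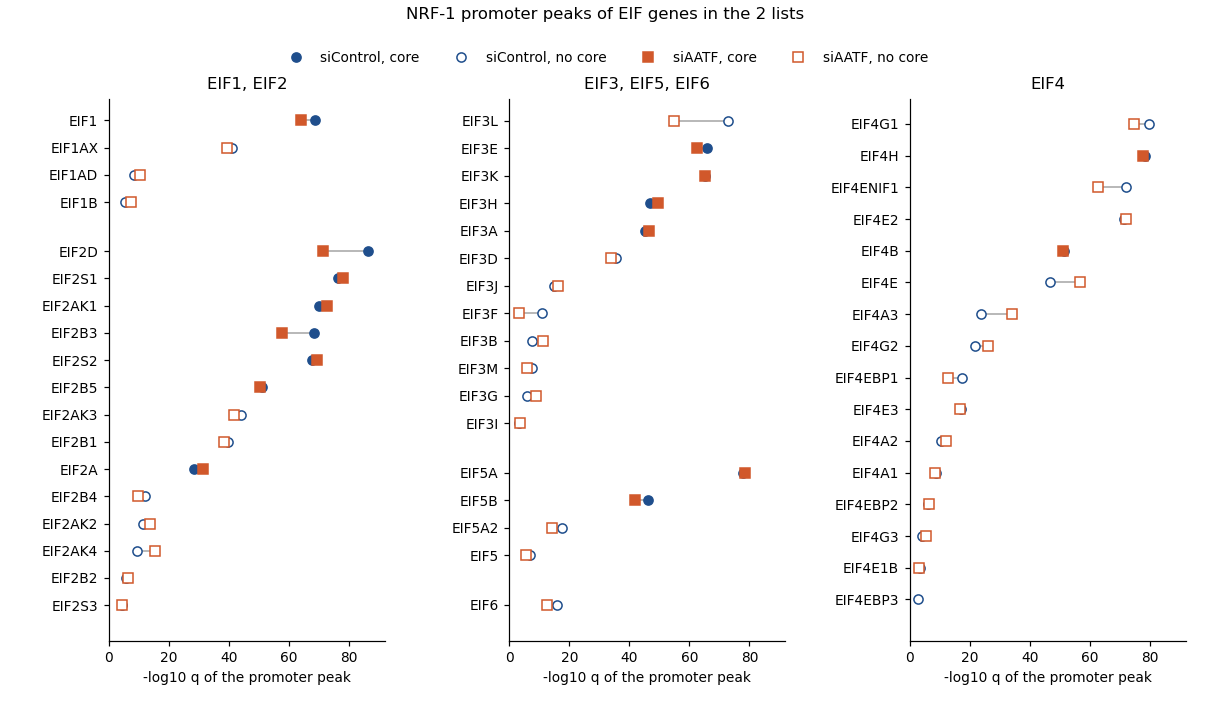
Strength of the NRF-1 promoter peak of each EIF gene with one, as −log10 q on the horizontal axis (no unit), in siControl (blue circles) and siAATF (orange squares), with filled symbols where the peak holds the core with up to 1 mismatch and a grey line joining the 2 lists. The members span 2.92 to 86.2 in siControl, the filled symbols all lie at 28.4 or higher, and EIF4EBP3 has no siAATF symbol.

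The strength of the peaks was compared with that of coding genes in general. The median rank by fold enrichment was 69.3 in siControl (95% interval of the median 58.9 to 77.1) and 70.5 in siAATF (59.7 to 83.7). For all coding genes with a promoter peak it was 63.2 and 64.3. Those values lie inside the intervals, which reflect the spread among member genes, and the difference was not tested. The median −log10 q was 23.6 and 32.6, against 18.1 and 17.6. The members themselves were widely spread, from a rank of 19.2 for EIF4E1B to 99.3 for EIF2B1 in siControl. The order of the EIF2, EIF3, EIF4 and EIF5 groups depended on the measure. By fold enrichment the median siControl rank was 77.5 for EIF2, 67.8 for EIF3, 63.5 for EIF4 and 49.0 for EIF5. In siAATF the same medians were 84.1, 64.3, 69.5 and 48.3, so that EIF3 and EIF4 changed places. When ranks were taken by −log10 q, EIF5 moved from last to second in siControl, at 74.3, behind EIF2 at 82.0 and ahead of EIF3 at 69.7 and EIF4 at 66.8. EIF2 was first by either measure in both lists. Genes within a group were widely spread. The siControl interval of the median ran from 52.9 to 91.6 for EIF2, 35.6 to 91.3 for EIF3 and 34.3 to 77.1 for EIF4. The groups were not tested against each other. The 4 EIF5 genes with a peak spanned 38.7 to 81.5. The EIF5 peaks were also the widest, with a median of 1473 bp in siControl, beside 876 bp for EIF2, 854 bp for EIF3 and 963 bp for EIF4.

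The EIF2 genes comprised the EIF2 complex itself, its exchange factor EIF2B, and the kinases that switch it off. EIF2S1, the alpha subunit that those kinases phosphorylate, had a −log10 q of 76.4 in siControl and 77.9 in siAATF (siControl peak chr14:67826313-67827463). EIF2S2 was close to it, at 67.7 and 69.2. The gamma subunit gene EIF2S3, on chromosome X, was far below both, at 4.30 and 4.40. The partners of this complex were therefore unequal by this measure, with 2 of the 3 parent subunit genes among the strongest members and the other near the bottom. The ranks of EIF2S1 and EIF2S2, 77.7 and 77.4 in siControl, were likewise above that of EIF2S3, 35.5.

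EIF2B reloads EIF2 with GTP, and all 5 of its subunit genes had a peak. EIF2B3, part of the catalytic arm, reached 68.3 in siControl and 57.6 in siAATF, and EIF2B5, the catalytic subunit, 51.1 and 50.4. EIF2B1, a regulatory subunit, was at 39.6 and 38.2 and had no core. These 3 ranked at 91.6 or higher in both lists, and EIF2B1 and EIF2B3 had the highest ranks of the EIF2 group, at 99.3 and 99.0 in siControl. EIF2B4 and EIF2B2, the other regulatory subunits, were weak, with a −log10 q of 12.1 and 5.60 in siControl. Their siAATF values were 9.71 and 6.21.

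Each of the 4 EIF2 kinases senses a different stress. EIF2AK1, bearer of the exact core, had the highest −log10 q of them, 70.02 in siControl and 72.7 in siAATF. EIF2AK3, the kinase of the endoplasmic reticulum, followed at 44.2 and 41.8, but that peak did not lie at its main start. It sat 64209 bp upstream, at an alternative start shared with the promoter of RPIA, a pentose phosphate pathway gene. The peak at the canonical EIF2AK3 start had a −log10 q of 5.64 in siControl and 4.74 in siAATF. EIF2AK2, the kinase for double-stranded RNA, had 11.5 and 13.8, and EIF2AK4, which senses uncharged tRNA, 9.27 and 15.3. By rank of fold enrichment EIF2AK1 was not first. In siControl it ranked at 75.7, below EIF2AK3 at 81.4. In siAATF it ranked at 84.9, below EIF2AK4 at 95.1 and EIF2AK2 at 86.6. Outside the complex, EIF2D, which can deliver initiator tRNA on its own, had the highest −log10 q of all members in siControl, 86.2, with 71.4 in siAATF (siControl peak chr1:206785443-206786420). EIF2A, a separate tRNA carrier despite its name, had 28.4 and 31.2, the lowest value of any core-bearing member in either list. The group held the core in 7 of its 14 promoter peaks.

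EIF3 is assembled from many subunits, and 12 of its 14 genes had a peak. The highest siControl values were those of EIF3L, at 72.7, EIF3E, at 65.8, and EIF3K, at 65.1. In siAATF they were 54.7, 62.4 and 65.2. EIF3L and EIF3K encode a subunit pair at the edge of the complex. EIF3L held no core, whereas EIF3E and EIF3K did. EIF3H and EIF3A, the scaffold subunit, followed at 46.9 and 45.3 in siControl, both with a core. The remaining 7 genes were weaker and had none. EIF3D, which can itself bind the cap on some mRNAs, stood at 35.4, and EIF3J, EIF3F, EIF3B, EIF3M, EIF3G and EIF3I ran from 14.8 down to 3.30. By −log10 q the EIF3 genes were therefore split in siControl. There were 6 members at 35.4 or higher and 6 at 14.8 or lower, with nothing between. In siAATF the same split ran between 33.99 for EIF3D and 16.2 for EIF3J. By rank of fold enrichment the 2 sets overlapped. EIF3K ranked at 64.6 and EIF3F at 71.0 in siControl, and EIF3K at 61.5 and EIF3J at 67.2 in siAATF. The EIF3H value came from an alternative start, and the peak at its canonical start reached 2.38 in siControl and 1.68 in siAATF. The lowest siAATF values were those of EIF3F, 3.19, and EIF3I, 3.41.

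The EIF4 genes had a peak in 16 of 16 cases in siControl and 15 of 16 in siAATF. Their highest siControl −log10 q, 79.9, was that of EIF4G1 (chr3:184032015-184033291), with 74.7 in siAATF. It is the main scaffold that joins the cap complex to EIF3. The related scaffolds were lower by this measure. EIF4G2, which lacks the EIF4E-binding part, had 21.7 and 26.2, and EIF4G3 had 4.09 and 5.49. By rank of fold enrichment, EIF4G2 was instead above EIF4G1. The ranks were 77.1 and 64.6 in siControl and 89.3 and 69.5 in siAATF, while EIF4G3 was lowest in both lists. EIF4H and EIF4B, both cofactors of the EIF4A helicase, were at 78.3 and 51.4 in siControl and at 77.8 and 51.2 in siAATF. They were the only core-bearing EIF4 genes. The helicase genes themselves were lower by −log10 q. EIF4A1, EIF4A2 and EIF4A3 had 8.81, 10.6 and 23.6 in siControl and 8.37, 12.0 and 33.9 in siAATF. By rank of fold enrichment in siControl, EIF4A2 at 62.4 and EIF4A3 at 69.3 were above EIF4B at 59.2. EIF4A1, at 34.3, was below it, and EIF4H, at 84.4, was above all of these. In siAATF EIF4A3 ranked at 93.8, above EIF4H at 89.8. EIF4A3 acts in the exon junction complex rather than in initiation.

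Among the cap-binding proteins, EIF4E2, a form linked to repression, had 71.6 in siControl and 72.2 in siAATF, above EIF4E itself at 46.8 and 56.8. EIF4E3 had 17.2 and 16.8. EIF4E1B, a form known from oocytes, had 3.31 and 3.23, and its rank of 19.2 in siControl was the lowest of all members. Of the EIF4E-binding proteins, EIF4ENIF1 stood at 72.1 and 62.7, while EIF4EBP1 had 17.4 and 12.7 and EIF4EBP2 had 5.96 and 6.35. The EIF4ENIF1 value again came from an alternative start, 6585.5 bp upstream, at the promoter of SFI1, and the peak at its canonical start reached 14.8 and 11.6.

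EIF5A, which despite its name acts mainly in elongation and carries the amino acid hypusine, had a −log10 q of 77.9 in siControl and 78.5 in siAATF, the highest siAATF value of any member (siControl peak chr17:7210026-7211408). It held 3 cores. Its paralogue EIF5A2 had 17.7 and 14.3. EIF5B, the GTPase that joins the subunits, had 46.2 and 42.05 and the widest member peak, of 2028 bp in siControl, with 3 cores spread along it. EIF5, which makes EIF2 hydrolyse its GTP, had 6.94 and 5.65. In the smaller groups, EIF1, a guard of start codon choice, had 68.7 and 63.9 with a core, and EIF1AX, its partner, 41.1 and 39.3 with none. EIF1AX ranked at 99.2 and 99.7 by fold enrichment, the highest siAATF rank of any member. EIF1B and EIF1AD were weak, with a −log10 q of 5.46 and 8.20 in siControl and 7.25 and 10.3 in siAATF. EIF6, which keeps the large subunit from joining too early, had 15.9 and 12.4.

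**Figure D2:**
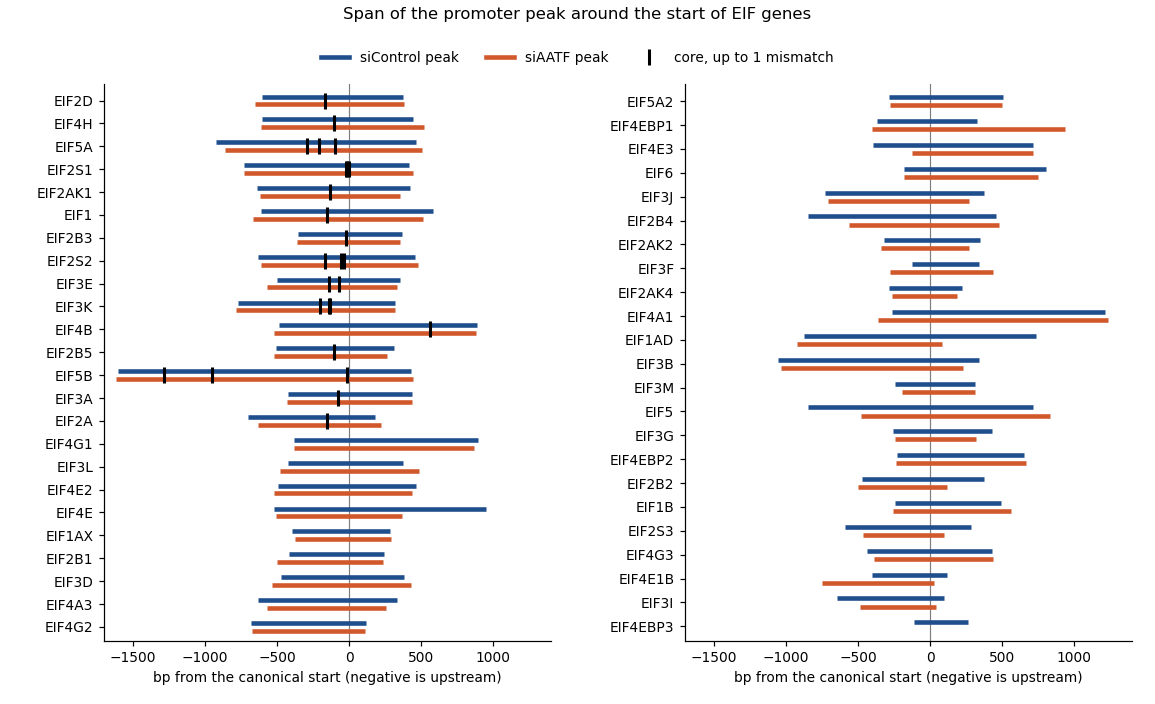
Span of the siControl (blue) and siAATF (orange) promoter peak of the 47 members whose siControl peak covers the canonical start, in bp from that start (horizontal axis, negative upstream), with black ticks at cores with up to 1 mismatch in the siControl peak. Core-bearing members fill the top 15 rows of the left panel, and most of their ticks lie just before the start.

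Most of the chosen peaks were centred close to the canonical start, which follows in part from choosing peaks within 1 kb of a start. The peak spanned the canonical start in 47 members in siControl and 46 in siAATF, and the median midpoint lay 57.5 bp before the start in siControl and 60.2 bp before it in siAATF. In both lists the exceptions were EIF2AK3, EIF3H, EIF4ENIF1 and EIF4A2. For EIF3H the stronger peak lay 10562.5 bp upstream at the promoter of UTP23, and the peak at its canonical start had a −log10 q of 2.38 in siControl and 1.68 in siAATF. EIF4A2 had a peak on each side of its start, and the stronger was centred 569 bp after it. EIF2AK3, EIF3E, EIF3H, EIF4A2 and EIF4ENIF1, 5 members in all, had more than 1 promoter peak in each list. These counts and distances were not computed over all coding genes, so they are not read as traits of the family.

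In 16 members the peak also covered the promoter of another coding gene. No such share over all coding genes was set beside this count, so it is not read as a trait of the family. The neighbours were BANF1 for EIF1AD, SERP1 for EIF2A, RPIA for EIF2AK3, GTF2H3 for EIF2B1, SNX17 for EIF2B4, ATP6V1D for EIF2S1, SNX8 for EIF3B and UTP23 for EIF3H. For the others they were TMEM234 for EIF3I, MAP4K1 for EIF3K, ANKRD54 for EIF3L, SNCB for EIF4E1B, TIGD1 for EIF4E2, SFI1 for EIF4ENIF1, a gene known only as ENSG00000291313 for EIF5 and TXNDC9 for EIF5B. Which of the genes at such a promoter the bound NRF-1 acts on cannot be told apart from these lists. When the canonical start alone was used, a setting likewise chosen with the data in view, the median rank was 64.6 in siControl and 66.4 in siAATF.

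The core followed the strength of the peak. Core-bearing members had a median −log10 q of 66.8 in siControl and 63.2 in siAATF, and members without a core 11.5 and 12.6. In siControl the core was held by 0 of 5 members below a −log10 q of 5, by 0 of 19 from 5 to 20, by 1 of 5 from 20 to 40, by 5 of 8 from 40 to 60 and by 10 of 14 at 60 or more. Over all coding genes the same classes held it in 1.26%, 3.54%, 14.8%, 47.0% and 83.6% of cases. The rise with strength was thus shared by coding genes at large and was not particular to the family. Stronger peaks were also wider. The median member width in siControl was 739 bp in the weakest class and 1055 bp in the strongest, and the part of width in the core share was not tested. The 4 strong members without a core, at 60 or more in siControl, were EIF4G1, EIF3L, EIF4ENIF1 and EIF4E2, and the best match in each differed from the palindrome at 2 positions. Some strong peaks were further from it. EIF1AX and EIF2B1, at ranks above 99 in siControl, had 3 mismatches at their best match. No match says only that those letters were not within the peak.

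**Figure D3:**
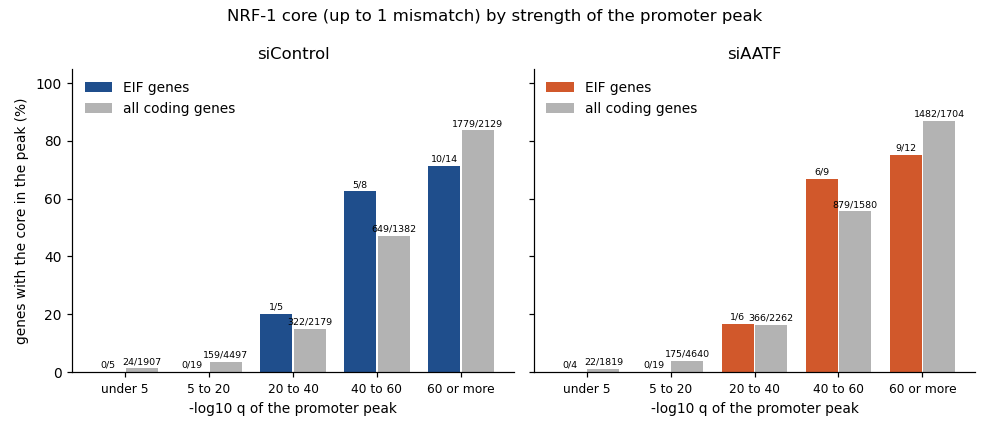
Share of genes (%, vertical axis) whose promoter peak holds the NRF-1 core with up to 1 mismatch, by the −log10 q class of that peak (horizontal axis), for EIF genes (coloured bars) and all coding genes (grey bars) in siControl (left) and siAATF (right), with genes with the core over genes in the class above each bar. In siControl the EIF share rises from 0 of 5 below 5 to 10 of 14 at 60 or more, and all coding genes rise from 1.26% to 83.6%.

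The words of other promoter factors were counted for comparison. The ETS word CCGGAAGT, read on both strands, was found in the siControl peak of 12 members (23.5%) and in 10.9% of all coding genes with a promoter peak, and 10 of those 12 members had no NRF-1 core. ETS factors such as GABPA, also called NRF-2, are frequent partners at housekeeping promoters. EIF2A and EIF2AK1 had both. The 10 members with the ETS word alone were EIF3L, EIF4ENIF1, EIF4E2 and EIF2B1, with a siControl −log10 q of 39.6 or higher, and EIF5A2, EIF6, EIF1AD, EIF3G, EIF2B2 and EIF3I, with 17.7 or lower. The YY1 word AGATGGCG, also on both strands, was found in 6 members (11.8%) and in 7.95% of all. The words share no stretch with the NRF-1 core beyond a few bases, and matches are letters, not shown binding. In the fixed window from 250 bases before to 50 after the canonical start, which does not depend on the peaks, 14 of 55 members (25.5%) and 10.6% of all coding genes held the core at up to 1 mismatch. The ETS word was present there in 23.6% of members and 6.08% of all, and the YY1 word in 9.09% and 3.46%. The exact core was present in 1.82% of members and 1.71% of all.

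The place of each peak in the order of strength was then compared between siControl and siAATF. Over the 50 members with a peak in both lists, the rank by fold enrichment was higher in siAATF for 32 and lower for 18. The median difference was 2.24 points (95% interval across genes −0.04 to 4.92), a comparison of 2 libraries that was not tested. Over 11773 coding genes, 51.2% were higher and the median was 0.183. By group the median difference was 4.92 points for EIF4 (12 higher, 3 lower), 3.03 for EIF2 (10 and 4), −0.87 for EIF3 (6 and 6) and −1.67 for EIF5 (1 and 3). Within EIF4, the 3 scaffold genes differed by 4.97 to 13.5 points and the 4 cap-binding genes by 2.26 to 21.9 points. The EIF4E-binding genes ran from −15.1 to 2.22 points and the EIF4A helicases from −8.51 to 24.4. With ranks by −log10 q, 39 members were higher and 11 lower, with a median of 1.94 points, and 55.6% of all coding genes were higher by that measure, with a median of 0.46. The direction was the same by both measures for 31 higher and 10 lower members.

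By more than 10 points, 15 of 50 members (30.0%) moved in either direction, beside 26.1% of all coding genes, and 4 members moved by more than 20. EIF2AK4 rose from a rank of 66.3 in siControl to 95.1 in siAATF, EIF4A3 from 69.3 to 93.8 and EIF4E from 69.8 to 91.7. Over all coding genes, 3.69% moved up by more than 20 points and 2.93% moved down, so that 3 up and 1 down of 50 members is close to the background. EIF3F, one of the smaller EIF3 subunits, moved the other way, from 71.0 to 25.2, with its −log10 q going from 10.8 to 3.19 (siControl peak chr11:8008761-8009222). This difference of −45.8 points was the largest of the family in either direction. The nearest members inside and outside the threshold were EIF4E, at 21.9 points, and EIF3G, at 17.2.

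Peak width moved with these ranks. In a broadPeak list, fold enrichment and −log10 q are both averaged over the called peak. The EIF4E peak was 1470 bp wide in siControl and 869 bp in siAATF, that of EIF4A3 964 and 824 bp, and that of EIF2AK4 506 and 449 bp. The EIF3F peak was 462 bp wide in siControl and 715 bp in siAATF. In each of the 4 the rank and the width therefore went in opposite directions, as they did in 35 of the 50 members (70.0%) and in 69.0% of the 11773 coding genes. With ranks by −log10 q the differences were 14.6 points for EIF2AK4, 9.0 for EIF4A3 and 6.15 for EIF4E, none past 20, while EIF3F still differed by −32.2. The part of width in these changes was not tested. None of the 4 held a core, nor did 34 of the 50 members. The 16 core-bearing members lay between −4.33 and 9.20 points, and those without a core between −45.8 and 28.8. Core-bearing peaks were also the stronger ones. Over all coding genes, a difference of more than 10 points was found for 9.04% of 2921 genes with a core and 31.7% of 8852 without, so this contrast was not particular to the family.

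**Figure D4:**
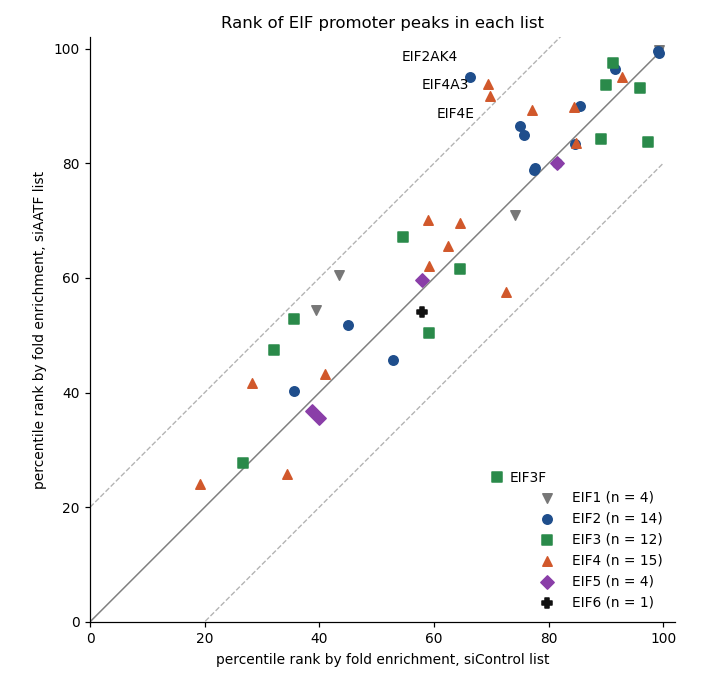
Percentile rank by fold enrichment of the promoter peak of each of the 50 EIF genes with a peak in both lists, in siControl (horizontal axis) and siAATF (vertical axis), by group, with the line of equal rank in solid grey and 20 points on either side of it dashed. EIF2AK4, EIF4A3 and EIF4E lie above the upper dashed line and EIF3F, at 71.0 and 25.2, lies far below the lower one.

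Genes for the rest of the translation machinery were set beside the family by counts and medians alone. Of 84 cytosolic ribosomal protein genes, 73 had a promoter peak in each list (86.9%), and of 78 mitochondrial ribosomal protein genes 72 had one (92.3%). The median siControl rank was 56.1 and 67.5, beside 69.3 for the EIF genes. In a list of 31 other translation genes, 27 had a peak in siControl (87.1%) and 26 in siAATF (83.9%), with a median rank of 56.9 and 54.1. All 8 elongation genes in it had one, led by EEF1D at a −log10 q of 79.7 in siControl. Of the 10 initiation proteins that do not carry the EIF symbol, 9 had a peak in siControl and 8 in siAATF. ABCF1 had none, and MCTS1, a partner of DENR in re-initiation, had a weak one in siControl alone, at 2.39. The exact core was present in the peaks of DDX3X, a helicase that aids scanning, and PDCD4, an inhibitor of EIF4A. Of 9 genes linked to signalling to or from initiation, 7 had a peak in each list. Among them was MKNK1, a kinase of EIF4E, at 94.9 in siControl and 74.6 in siAATF. MTOR itself was weak, at 6.01 and 3.42, and RPTOR and PPP1R15A had none. ATF4, whose mRNA is translated more when EIF2 is phosphorylated, stood at 4.47 and 4.96.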

How the data were processed

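NRF-1 ChIP-seq libraries of U251 cells treated with siControl or siAATF were prepared by ChIPmentation, in which a transposase adds the adapters on the bead. Per the study's methods, the authors aligned reads to hg19 with Bowtie2 and called peaks with MACS2 in the nf-core ATAC-seq pipeline with default parameters; such a pipeline may shift or extend reads, which would move peak edges in both lists alike. Whether libraries were pooled and how reads with several alignments were treated is not given in the sources used here. Each deposited list is a broadPeak file with 9 columns. The fold enrichment deposited by the authors is a ratio to the local background of its own library and was used only for ranks within a list. The −log10 p and −log10 q were deposited as MACS2 wrote them, and −log10 q depends on depth, which is unknown. The display score, also deposited by the authors, was left aside.

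Peaks were set against the GRCh37 genome and GENCODE release 44 lifted to it, with an overlap of at least 1 base, in Python 3.11.15 with numpy 2.4.6, pandas 2.3.3 and scipy 1.17.1, and figures were drawn with matplotlib 3.10.9. A promoter sequence that was examined is not reported here. The canonical start is that of the transcript GENCODE tags as canonical. The overlap, rank and motif steps were tested on simulated data. The rule for the members uses gene symbols alone, but the family, the gene lists and the motifs were picked with earlier results of these data known. The members named were those without a peak, the 3 highest and 2 lowest by siControl −log10 q of the EIF2, EIF3, EIF4 and EIF5 groups, those moving by more than 20 rank points, those with the exact core, those sharing a promoter and those with near-identical copies; all others are given by role. Intervals of medians are taken from the ordered values of the member genes, which are not replicates. With 1 list per condition, no test was made and no p-value was computed. Alternatives were peaks of −log10 q of at least 5, promoters of 500 bp and 2 kb, the canonical start alone, the 10000 strongest peaks, ranks by −log10 q, the peak with the highest fold enrichment, subsets of the genes, the exact core, and only those cores that lay no more than 100 bp from the middle of the peak.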

Additional observations from a re-analysis of the deposited data

How the results depend on the processing

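Over 15 results, 60 alternatives gave 0 reversed values, and 51 stayed inside the interval of the main value. With the 10000 strongest peaks of each list, the share of members with a promoter peak was 69.1% in siControl and 72.7% in siAATF. The share over all coding genes was not computed at this setting, so the members were not compared with it there. Without EIF3C, EIF3CL, EIF5AL1 and EIF2S3B, a setting chosen with the data in view, it was 100% and 98.0%. Those 4 genes had no peak in either list, so that rise was fixed by the choice. With peaks of −log10 q of at least 5, the median rank, taken among fewer and stronger peaks, was 58.5 in siControl, and that of the EIF5 genes was 25.3 in siControl and 24.7 in siAATF. The exact core gave 1.96% and 2.0% of members in place of 31.4% and 32.0%. The order of the EIF groups and 3 of the 4 rank differences past 20 points depended on the measure of strength. No paired analysis was possible because each condition has 1 list, and for the same reason no replicate could be left out. The unknown depth of each library limits how far a weak or missing peak can be read.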

Other observations

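Peaks inside the gene but away from promoters were looked for in the members only, so no share over all coding genes is given. Such an NRF-1 peak was found in 3 members. EIF2AK4 carried one in both lists, with a −log10 q of 2.13 in siControl (chr15:40268608-40269024) and 5.18 in siAATF (chr15:40268727-40269033). EIF3I had 1 such peak in siControl, at 2.01, and 2 in siAATF, at 3.24 and 1.97. EIF4G3 had one in siAATF alone, at 3.79 (chr1:21417738-21417976). None of these peaks held the NRF-1 core with up to 1 mismatch, and their ranks by fold enrichment ran from 7.99 to 48.7.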
